A study of Mus musculus with 3 samples.

Results

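Binding of CELF1 was examined by CLIP-seq in the serine/threonine phosphatase subunit genes, taken as the genes whose official mouse symbol starts with Ppp and a digit or with Ppm1. The RefSeq gene table holds 89 protein-coding genes under this rule, and 56 of them had at least 1 CLIP cluster, out of 8037 genes with a cluster in the series. These 56 genes, called phosphatase genes here, held 718 of 72222 clusters.

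Protein serine/threonine phosphatases remove phosphate from serine and threonine residues. Most work as a small set of shared catalytic subunits that are steered to substrates by many regulatory subunits, whereas the PPM enzymes (the PP2C family) act mostly as single proteins and need magnesium or manganese. In heart and skeletal muscle these enzymes act on myosin, glycogen metabolism and calcium handling, and calcineurin (PP2B) carries calcium signals to NFAT transcription factors. CELF1 (also CUGBP1) is a protein that recognises UGU-rich RNA, regulates alternative splicing from introns and exons and lowers mRNA stability from 3' UTRs.

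The data are 3 CLIP-seq libraries made with the 3B1 antibody against endogenous CELF1 after irradiation at 254 nm. One library came from heart ventricle and another from muscle, both of C57/BL6 mice aged 16 weeks, and the last came from C2C12 myoblasts, a cultured mouse line of muscle precursor cells that can form myotubes. No transgene, deletion or treatment is named for these libraries, the muscle used is not specified further, and how many animals gave each tissue library is unknown here. Each group was 1 library, so no difference between sources has a replicate check. No p-values are given, and every interval is an exact 95% Clopper-Pearson interval, or an exact interval for a ratio of shares, that covers counting error only. Clusters in the same gene are not independent, so these intervals are too narrow.

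A cluster is a stretch of a gene with more reads than its expression and length would place there by chance. Clusters carry no read numbers, so a gene is called bound in a library when it has at least 1 cluster there, and the strength of binding is unknown. The libraries differed in size, with 42263 clusters in heart, 24844 in muscle and 5115 in C2C12, so counts were compared as shares of a library's clusters. In the tissues, fewer cells of a type and less RNA per cell cannot be told apart.

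The library labels were set against marker genes. In heart, 7 of 8 heart markers had clusters (468 clusters), with Ryr2 at 252 and Nppa at 0. There 5 of the 8 skeletal muscle markers also had clusters (16 clusters), of which 9 were in Atp2a1. In muscle all 8 skeletal muscle markers had clusters (154 clusters), led by Neb at 50 and Ryr1 at 49, whereas the 8 heart markers held 15 clusters, of which 14 were in Slc8a1. In C2C12, 4 of 8 myoblast markers had clusters (41 clusters), and Myf5, Cdh15, Igf2bp3 and Vgll3 had none. Most of these clusters were in Hmga2 (26) and Ccnd1 (11), whereas Myod1 and Chrna1 had 2 each. In the same library the heart markers held 5 clusters and the skeletal muscle markers 0. The myoblast markers held 6 clusters in heart and 5 in muscle. The 5 endothelial markers held 55, 20 and 0 clusters in heart, muscle and C2C12, the 4 fibroblast markers 4, 4 and 1, and the 3 smooth muscle markers 16, 10 and 2. The part of these other cells in the phosphatase clusters was not tested.

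Stretches covered by a cluster in all 3 libraries were found at 11 places in 7 phosphatase genes. The longest of these are printed because they are the positions at which tissue and cultured cells had CELF1 clusters on the same bases. Each line gives up to 30 bases of the stretch, 5′ to 3′ along the RNA in DNA letters (mm9), with every TGT (UGU in RNA) in capitals.
Ppp1cb 3' UTR, chr5:32793814-32793843, plus strand: tgagctTGTttTGTttTGTtTGTttttgct
Ppp1cb 3' UTR, chr5:32794331-32794360, plus strand: gtttTGTtttttggggttttTGTTGTtTGT
Ppp2ca 3' UTR, chr11:51935940-51935969, plus strand: tTGTatgattTGTctgcactcagtttctcc
Ppp1r15b 3' UTR, chr1:135034250-135034279, plus strand: atgcattgagttctTGTGTgctttttcTGT
Ppp2r1a 3' UTR, chr17:21102573-21102602, plus strand: ggttcggttcctcctcTGTagcctgggaag
Ppp3cb intron, chr14:21322669-21322698, minus strand: cTGTGTGTaagcTGTgcTGTGTtagaaatt
Ppp3ca intron, chr3:136355296-136355325, plus strand: tttTGTctcgttccTGTGTaaatcaatcct
Ppp6r2 upstream of its annotated start, chr15:89058460-89058489, plus strand: ataTGTtTGTggctcTGTGTGTGTGTGTGT

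The printed 3' UTR stretches held 1 to 4 UGU triplets. The Ppp6r2 stretch ended in an unbroken run of alternating U and G and had 9 UGU in the printed bases. For contrast, the intron of Ppp1r12b with the most UGU-dense clusters is also shown. It was chosen after its values were seen, and it was covered in heart and muscle over 106 nt that held 22 UGU.
Ppp1r12b intron, chr1:136756440-136756469, minus strand: aTGTcTGTGTcTGTaTGTGTGTcTGTGTGT

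Phosphatase genes held 384 clusters in heart, 306 in muscle and 28 in C2C12. As a share of all clusters this was 0.909% (0.820% to 1.00%) in heart, 1.23% (1.10% to 1.38%) in muscle and 0.547% (0.364% to 0.790%) in C2C12. The muscle share lay above the heart share and the C2C12 share below it, with no overlap of the intervals. Counted as genes, the 3 sources were alike, since phosphatase genes made up 0.773% of the bound genes in heart, 0.768% in muscle and 0.763% in C2C12.

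Of the 56 genes, 53 were bound in heart, 41 in muscle and 21 in C2C12. The C2C12 number fell to 9 without clusters under 40 nt and to 6 when at least 2 clusters were required. The 53, 41 and 21 genes are 94.6%, 73.2% and 37.5%, beside 85.3%, 66.5% and 34.3% of all 8037 genes. When heart and muscle were thinned to the size of the C2C12 library, the expected number of bound phosphatase genes was 26.2 and 25.8, beside 21 in C2C12. That is 46.8% and 46.0% of the 56 genes, beside 37.5% in C2C12. Over all genes the thinned shares were 34.9% and 33.4%, beside 34.3% in C2C12. A bound phosphatase gene had a median of 5 clusters in heart, 6 in muscle and 1 in C2C12, and the median over all bound genes was 3, 3 and 1. In heart and in muscle, 14 phosphatase genes had 10 or more clusters each, which is 26.4% and 34.1% of those bound, beside 17.1% and 11.8% of all bound genes. The 10 leading genes held 49.2% of the phosphatase clusters in heart and 57.2% in muscle. Median cluster width was 57 nt, 58 nt and 37 nt, and no cluster was narrower than 35 nt.

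**Figure D1:**
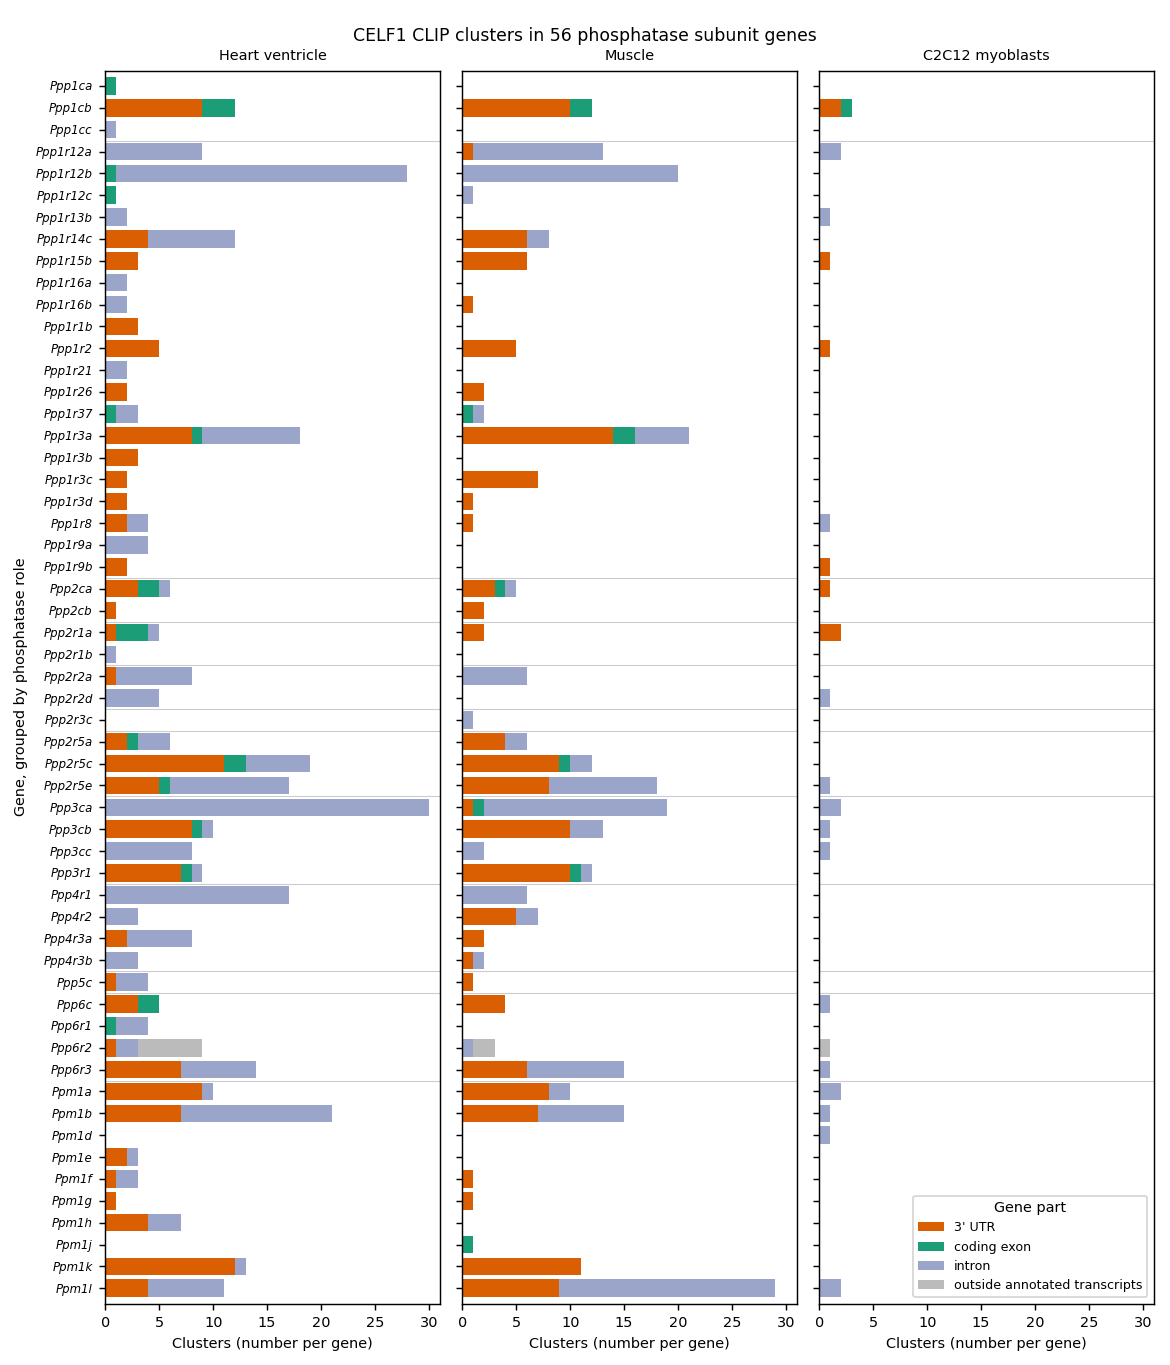
Number of CELF1 clusters per phosphatase gene (horizontal axis) in heart, muscle and C2C12 (panels), with genes grouped by phosphatase role (grey lines) and bars divided by gene part. The longest bars are Ppp3ca in heart (30 clusters) and Ppm1l in muscle (29), and no bar exceeds 3 clusters in C2C12.

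By gene part, 3' UTR clusters made up 35.9% of the phosphatase clusters in heart (138 of 384, 31.1% to 41.0%), 52.0% in muscle (159 of 306, 46.2% to 57.7%) and 28.6% in C2C12 (8 of 28, 13.2% to 48.7%). Intronic clusters made up 56.8% (218 clusters, 51.6% to 61.8%), 44.1% (135 clusters, 38.5% to 49.9%) and 64.3% (18 clusters, 44.1% to 81.4%). The heart and muscle intervals did not overlap for either part, whereas the C2C12 intervals overlapped both. The same split was present over all genes, with 33.0%, 50.1% and 33.9% of clusters in 3' UTRs and 58.7%, 43.2% and 60.4% in introns, and each of these values lay inside the interval of the phosphatase genes. Coding exons held 22 phosphatase clusters in heart, 10 in muscle and 1 in C2C12. No phosphatase cluster lay in a 5' UTR. The upper limits of the exact intervals were 0.956% in heart, 1.20% in muscle and 12.3% in C2C12, and the shares over all genes were 0.544%, 0.523% and 0.352%. The 9 clusters outside annotated transcripts were all in Ppp6r2, whose annotated start (chr15, position 89083466) lies downstream of them.

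**Figure D2:**
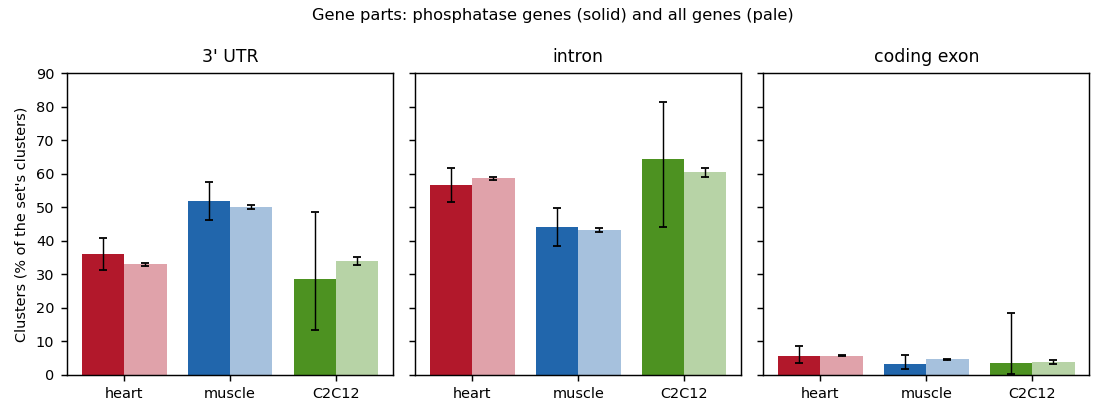
Share of clusters (percent, vertical axis) in 3' UTRs, introns and coding exons for phosphatase genes (solid bars) and all genes (pale bars) in each library, with exact 95% intervals for counting error. The 3' UTR bar of the phosphatase genes is 35.9% in heart and 52.0% in muscle, and each pale bar stands within the interval of its solid neighbour.

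The genes differed in where they were bound. In heart, 10 bound phosphatase genes had clusters in the 3' UTR and no other part, and 14 in introns and no other part. A further 22 had both 3' UTR and intronic clusters, with or without clusters elsewhere. In muscle these numbers were 15, 6 and 16, and in C2C12 they were 5, 14 and 0. Between heart and muscle, 27 genes had 3' UTR clusters in both, 7 in heart alone and 5 in muscle alone. Intronic clusters were less evenly divided, with 22 genes in both, 17 in heart alone and 2 in muscle alone. The libraries differed in the same direction over all genes. There 4149 genes in heart and 3615 in muscle had 3' UTR clusters, and 4705 and 3115 had intronic clusters. The split by part into both tissues or a single tissue is not given over all genes. The counts of phosphatase genes in heart alone or muscle alone by part therefore have no background.

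Among the PP1 catalytic subunits, Ppp1cb (PP1 beta, the catalytic subunit of myosin phosphatase) carried nearly all clusters. Heart and muscle had 12 clusters each there and C2C12 had 3, the highest count of any phosphatase gene in C2C12. Of these, 9, 10 and 2 lay in its 3' UTR and the rest in coding exons, and none was intronic although the gene spans 58460 nt (chr5:32761347-32819806). The 3' UTR clusters lay between 264 and 1705 nt after the stop codon, within a 3' UTR of 4465 nt. All 3 C2C12 clusters overlapped clusters of both tissues, and 10 of 12 heart clusters overlapped a muscle cluster. Ppp1ca and Ppp1cc, which encode the alpha and gamma catalytic subunits, had 1 cluster each, in heart. Ppp1ccb had no cluster in the files analysed here.

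PP1 regulatory genes, which target or inhibit PP1, had clusters in 20 of 41 protein-coding symbols, with 20 bound in heart, 13 in muscle and 6 in C2C12. They held 109, 88 and 7 clusters, of which 36, 44 and 3 were in 3' UTRs. The leading gene in heart was Ppp1r12b (MYPT2, the myosin-targeting subunit of striated muscle, chr1:136651235-136852519), with 28 heart, 20 muscle and 0 C2C12 clusters. All but 1 of its 48 clusters were intronic and none fell in its annotated 3' UTR of 6234 nt. A single intron of 52267 nt held 13 of the heart and 5 of the muscle clusters, while an intron of 19357 nt, from which the Ppp1r12b bases above were taken, held 4 in each tissue. Ppp1r12a (MYPT1, the targeting subunit of smooth muscle and non-muscle myosin phosphatase) was also mainly intronic, with 9, 13 and 2 clusters, of which 9, 12 and 2 were in introns.

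Of the glycogen-targeting subunits of PP1, Ppp1r3a and Ppp1r3c held most clusters, and Ppp1r3e, Ppp1r3f and Ppp1r3g had none in the files analysed here. Ppp1r3a, which encodes the glycogen-targeting subunit of striated muscle (chr6:14663822-14705274), had 18 heart, 21 muscle and 0 C2C12 clusters, and 8 and 14 of these were in its 3' UTR, while 9 and 5 lay in an intron of 32325 nt. In both tissues 14 of its clusters overlapped a cluster of the other tissue. Ppp1r3c (PTG) had 2, 7 and 0 clusters, all in its 3' UTR. Ppp1r3b and Ppp1r3d had 3 and 2 in heart and 0 and 1 in muscle, all in 3' UTRs.

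Among inhibitors and other PP1 partners, Ppp1r14c (KEPI, a PP1 inhibitor activated by protein kinase C) had 12, 8 and 0 clusters, with 4 and 6 in its 3' UTR. Ppp1r2 (inhibitor-2) had 5, 5 and 1 and Ppp1r15b (CReP, which directs PP1 to the translation factor eIF2 alpha) had 3, 6 and 1, all in 3' UTRs. In Ppp1r15b the C2C12 cluster coincided with the printed stretch, and in Ppp1r2 it overlapped neither tissue. Ppp1r8 (NIPP1, a nuclear PP1 inhibitor) had 4, 1 and 1 clusters. Ppp1r37 had 3, 2 and 0 and Ppp1r26 had 2, 2 and 0, while the other 8 genes of the group had at most 4 clusters in any library.

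**Figure D3:**
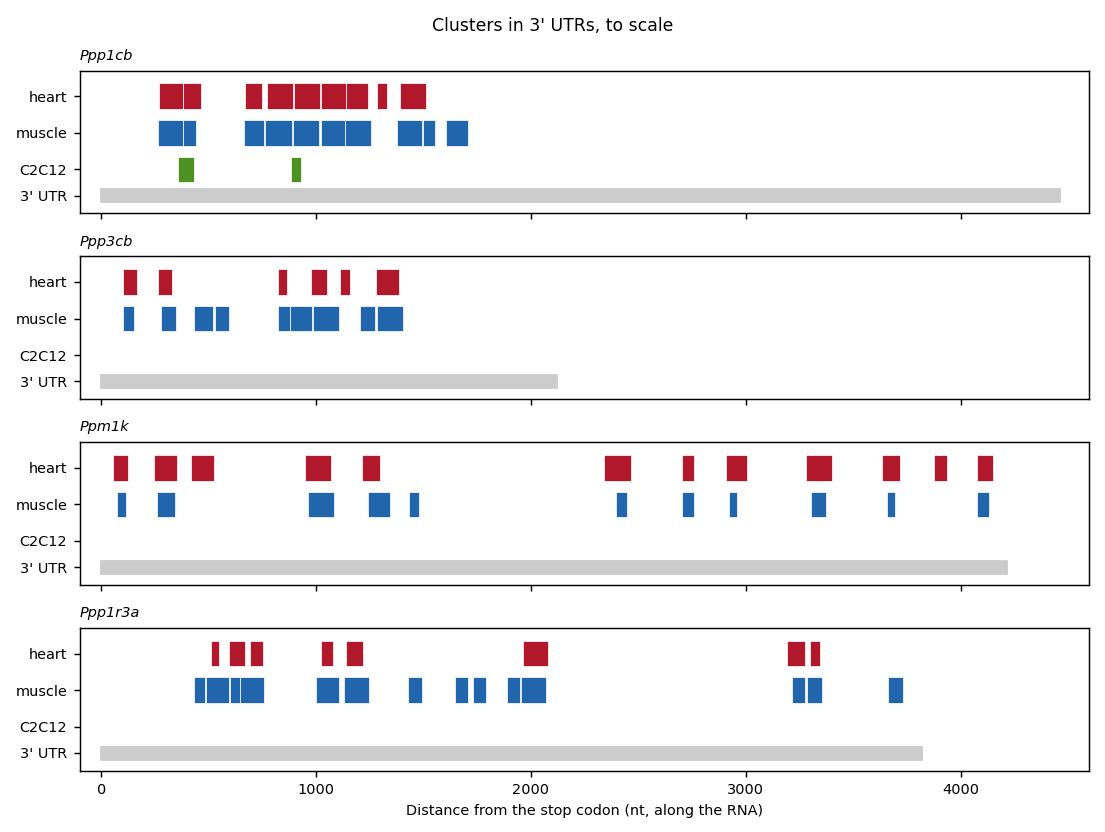
Clusters (boxes, to scale) of heart, muscle and C2C12 along the 3' UTR of the longest coding transcript of Ppp1cb, Ppp3cb, Ppm1k and Ppp1r3a, with distance from the stop codon in nt on the horizontal axis and the 3' UTR in grey. Most heart boxes have a muscle box at the same place, and the Ppp1cb boxes end at 1705 nt of 4465 nt. In Ppp3cb a further 2 heart clusters and 1 muscle cluster lie in the 3' UTR of another transcript and are not drawn.

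Among PP2A genes, both catalytic subunits were bound. Ppp2ca (catalytic alpha) had 6, 5 and 1 clusters in heart, muscle and C2C12, of which 3, 3 and 1 were in its 3' UTR, and the C2C12 cluster was the printed stretch. Ppp2cb (catalytic beta) had 1, 2 and 0, all in its 3' UTR. The scaffold gene Ppp2r1a had 5, 2 and 2, and both C2C12 clusters were in its 3' UTR, whereas 3 of the heart clusters were in coding exons. The other scaffold gene, Ppp2r1b, had 1 heart cluster.

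The B' (B56) regulatory genes held most PP2A clusters, 42 in heart, 36 in muscle and 1 in C2C12 over 3 of 5 symbols. Ppp2r5c (B56 gamma, chr12:111685518-111821271) had 19, 12 and 0 clusters with 11 and 9 in its 3' UTR. Ppp2r5e (B56 epsilon, chr12:76551870-76697232) had 17, 18 and 1 with 5, 8 and 0 in its 3' UTR, and 9 and 8 lay in an intron of 77370 nt. Ppp2r5a (B56 alpha) had 6, 6 and 0. The B (B55) genes were bound in introns, as Ppp2r2a had 8, 6 and 0 clusters of which 7 and 6 were intronic, and Ppp2r2d had 5, 0 and 1, all intronic. Of the B'' genes, Ppp2r3c had 1 cluster, in a muscle intron.

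Calcineurin genes held 57, 46 and 4 clusters over 4 of 5 symbols, and the catalytic subunits differed from each other in where they were bound. Ppp3ca (catalytic alpha, chr3:136333088-136600691) had the most clusters of any phosphatase gene in heart and over the libraries together, with 30 in heart, 19 in muscle and 2 in C2C12. All heart and C2C12 clusters and 17 of the muscle clusters were intronic, and 1 muscle cluster fell in the 3' UTR of 2502 nt. The Ppp3ca intron of 126824 nt held 19, 10 and 2 of them. Ppp3cc (catalytic gamma) had 8, 2 and 1, all intronic.

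Ppp3cb (catalytic beta, chr14:21318586-21365795) was instead bound mainly in its 3' UTR, with 8 of 10 clusters in heart and 10 of 13 in muscle. Its only C2C12 cluster was intronic, 164 nt upstream of an exon, at the printed stretch that the tissues shared. The calcium-binding regulatory subunit gene Ppp3r1 had 9, 12 and 0 clusters, of which 7 and 10 were in its 3' UTR. The other regulatory gene, Ppp3r2, had no cluster in the files analysed here.

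PP4 genes held 31 clusters in heart, 17 in muscle and 0 in C2C12. Ppp4r1, a regulatory subunit, had 17, 6 and 0 clusters, all intronic, and 9 of the heart clusters and 1 of the muscle clusters lay in an intron of 19491 nt. Ppp4r2 had 3 clusters in heart, all intronic, and 7 in muscle, of which 5 were in its 3' UTR. Ppp4r3a had 8, 2 and 0 clusters, of which 6 heart clusters were intronic, and Ppp4r3b had 3, 2 and 0. The catalytic gene Ppp4c had no cluster in the files analysed here.

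Ppp5c, which encodes the single-chain phosphatase PP5, had 4 heart clusters and 1 muscle cluster. All 4 PP6 symbols had clusters. The catalytic gene Ppp6c had 5, 4 and 1, of which 3 and 4 tissue clusters were in its 3' UTR and the C2C12 cluster was intronic. Among the PP6 regulatory genes, Ppp6r3 (chr19:3454933-3575749) had 14, 15 and 1, with 7, 6 and 0 in its 3' UTR. Ppp6r2 had 9, 3 and 1, and Ppp6r1 had 4 in heart alone.

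**Figure D4:**
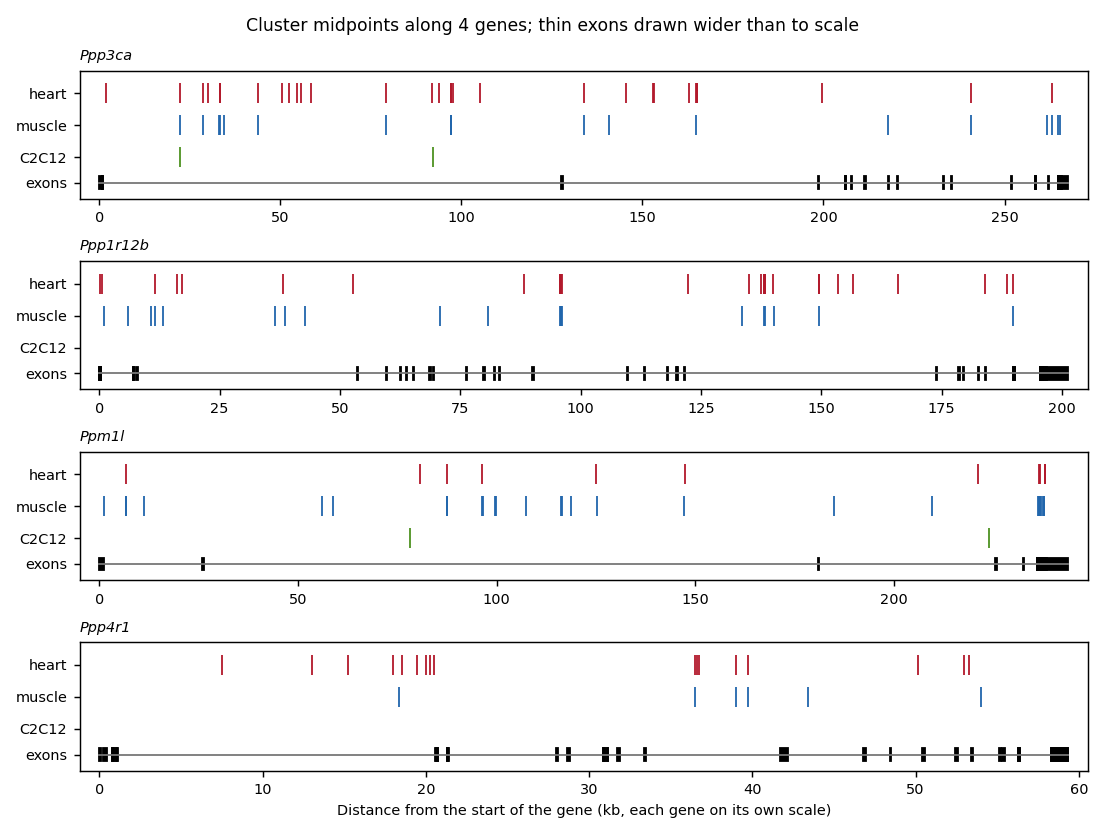
Cluster midpoints (ticks) of heart, muscle and C2C12 along Ppp3ca, Ppp1r12b, Ppm1l and Ppp4r1, with distance from the start of the gene in kb on the horizontal axis (each gene on its own scale) and exons as black boxes drawn wider than to scale. The ticks are spread through introns, as in the 126824 nt intron of Ppp3ca with 19 heart ticks, and the 3' UTR at the right end of Ppm1l holds 9 of its 29 muscle ticks.

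PPM genes held 69, 68 and 6 clusters over 10 of 12 symbols, and Ppm1m and Ppm1n had none in the files analysed here. Ppm1l (an enzyme of the endoplasmic reticulum membrane, chr3:69120783-69364724) had 11 heart, 29 muscle and 2 C2C12 clusters. Of these, 4, 9 and 0 were in its 3' UTR and 7, 20 and 2 in introns, and 4 clusters of each tissue overlapped the other. Ppm1k, the mitochondrial phosphatase that activates the branched-chain ketoacid dehydrogenase, had 13, 11 and 0, and all but 1 lay along its whole 3' UTR of 4216 nt, from 54 to 4150 nt after the stop codon. There 10 heart clusters and 10 muscle clusters overlapped.

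Ppm1b (PP2C beta, chr17:85356081-85423331) had 21, 15 and 1 clusters, with 7 in the 3' UTR in each tissue. Ppm1a (PP2C alpha) had 10, 10 and 2, of which 9 and 8 tissue clusters were in its 3' UTR while both C2C12 clusters were intronic. Ppm1h had 7 clusters and Ppm1e had 3, in heart alone. Ppm1f had 3, 1 and 0, Ppm1g had 1, 1 and 0, Ppm1j had 1 in muscle alone, and Ppm1d (WIP1, a phosphatase induced by p53) had 1 in C2C12 alone.

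Catalytic genes (20, with the PPM genes) and regulatory genes (36) were also compared as groups. In heart, 44.2% (36.0% to 52.6%) of catalytic clusters and 30.8% (25.0% to 37.1%) of regulatory clusters were in 3' UTRs. In muscle the shares were 54.0% (44.9% to 62.9%) and 50.6% (43.0% to 58.1%). In C2C12 they were 20% (4.33% to 48.1%) and 38.5% (13.9% to 68.4%), in the opposite order. The intervals overlapped in all 3 libraries.

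The heart and muscle libraries were compared gene by gene. Of 55 phosphatase genes with a cluster in either tissue, 14 (25.5%) were bound in heart and not in muscle, beside 30% of all genes, and 2 (3.64%, Ppm1j and Ppp2r3c) in muscle and not in heart, beside 10.1%. Those in heart alone of the pair were led by Ppm1h with 7 clusters, Ppp2r2d with 5, Ppp1r9a (neurabin, an actin-binding PP1 partner) and Ppp6r1 with 4 each, and Ppm1e with 3. The exact interval of the ratio of heart to muscle share reached down to 0.847 for Ppm1h and to between 0.243 and 0.539 for the other 4, so a difference was not detectable at this depth.

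A gene was called past 2-fold when it had at least 4 clusters in the higher library and at least 2 times the share of the other, whose count was raised to 3 where lower. Of 34 phosphatase genes with at least 4 clusters in either tissue, 7 (20.6%) were past 2-fold in muscle over heart, beside 18.5% of all genes, and 0 in heart over muscle, beside 8.01%. The share in muscle over heart was near the background. The rule was easier to meet in muscle, the smaller library. Against the floor of 3 clusters, 4 muscle clusters were enough for a call. In heart 9 clusters were not enough, as for Ppp6r2 with 9 heart and 3 muscle clusters. The 7 and 0 calls are thus not comparable with each other.

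Ppm1l stood out among these 7 genes, with 29 muscle and 11 heart clusters and a muscle share 4.48 times the heart share (2.17 to 9.95). Ppp1r3c, with 7 and 2 clusters, had a ratio of 5.95 (1.13 to 58.7). These were the only 2 of the 7 whose interval excluded a ratio of 1. For Ppp4r2 (7 and 3 clusters) the ratio was 3.97 (0.906 to 23.8) and for Ppp1r15b (6 and 3) it was 3.40 (0.727 to 21.0). The ratios of Ppp1r12a, Ppp3r1 and Ppp3cb were 2.46, 2.27 and 2.21, and all 3 intervals included 1. Just below the threshold, Ppp1r3a had a ratio of 1.98 (1.01 to 3.95).

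Genes with more clusters in heart had wide intervals. The heart share of Ppp4r1 was 1.67 times the muscle share (0.627 to 5.16), and those of Ppp3cc and Ppp4r3a were each 2.35 times (0.469 to 22.7) from 8 and 2 clusters. Among the genes with the most clusters in heart, the muscle share was 1.08 times the heart share for Ppp3ca (0.573 to 1.98), 1.22 times for Ppp1r12b (0.649 to 2.24), 1.22 times for Ppm1b (0.583 to 2.47) and 1.07 times for Ppp2r5c (0.476 to 2.33). For Ppp2r5e it was 1.80 times (0.876 to 3.72).

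**Figure D5:**
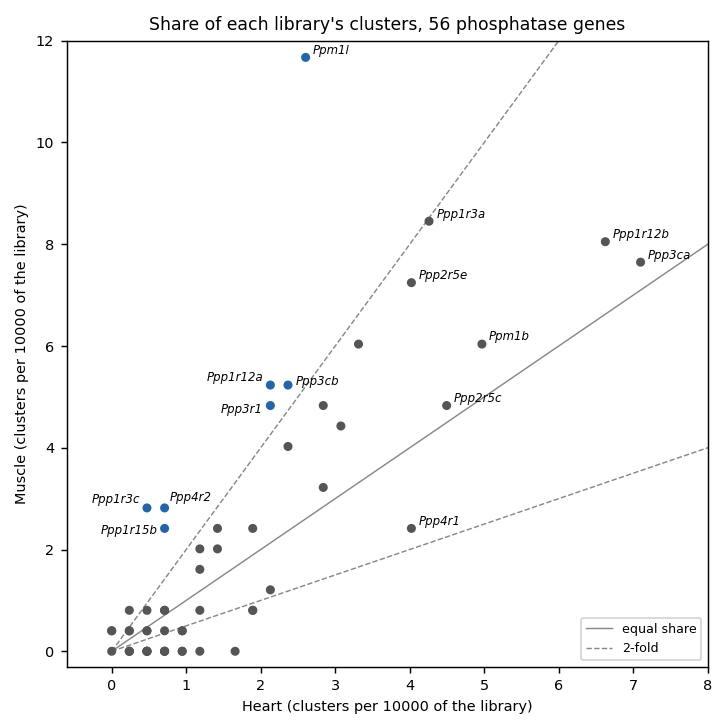
Clusters per 10000 clusters of the library in heart (horizontal axis) and muscle (vertical axis) for the 56 phosphatase genes, with lines of equal share and of a 2-fold difference, and in blue the 7 genes past 2-fold in muscle. Ppm1l lies far above the upper line and Ppp1r3a on it. The points below the lower line have 0 to 2 muscle clusters, and their heart counts are too low for a call against the floor of 3 clusters. Genes with the same counts share a point.

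C2C12 was compared with each tissue in the same way. Of 54 phosphatase genes with a cluster in heart or C2C12, 33 (61.1%) were bound in heart and not in C2C12, beside 62.7% of all genes, and 1 (1.85%, Ppm1d) in C2C12 and not in heart, beside 7.21%. Of 45 with a cluster in muscle or C2C12, 24 (53.3%) were bound in muscle alone, beside 55.2%, and 4 (8.89%, Ppm1d, Ppp1r13b, Ppp1r9b and Ppp2r2d) in C2C12 alone, beside 13.2%. No phosphatase gene was past 2-fold in either direction, out of 31 with heart and 24 with muscle. The background was 1.28% for heart over C2C12, 6.34% for C2C12 over heart, 1.33% for muscle over C2C12 and 9.21% for C2C12 over muscle. These zeros were fixed by the rule, so they are not read against the background. No phosphatase gene had more than 3 C2C12 clusters, below the 4 needed for a call in C2C12. A call in a tissue needed more clusters than the highest counts, 30 in heart and 29 in muscle, even at the floor.

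Several genes with many tissue clusters nonetheless had none in C2C12. The exact interval of the ratio of muscle to C2C12 share had a lower limit of 1.07 for Ppp1r3a and 1.02 for Ppp1r12b, both barely above equal shares. For heart over C2C12 the lower limits were 0.532 and 0.859, so no difference was detectable. None was detectable for Ppp2r5c, Ppp3r1, Ppp4r1, Ppm1k and Ppp1r14c in either tissue. Conversely Ppp1cb, with 12 clusters in each tissue and 3 in C2C12, had a heart share 0.484 times that of C2C12 (0.131 to 2.67).

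Across the 3 libraries, 17 phosphatase genes (30.4%) were bound in all, beside 22.7% of all genes. They included at least 1 catalytic gene of PP1, PP2A, calcineurin, PP6 and PPM, namely Ppp1cb, Ppp2ca, Ppp3ca, Ppp3cb, Ppp3cc, Ppp6c, Ppm1a, Ppm1b and Ppm1l. A further 22 (39.3%) were bound in heart and muscle but not in C2C12, beside 34.2%, 11 (19.6%) in heart alone, beside 23.4%, and 3 in heart and C2C12.

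Binding of the same gene did not always mean binding of the same position. Of the heart clusters in phosphatase genes, 165 of 384 (43.0%, 38.0% to 48.1%) overlapped a muscle cluster by at least 1 base, beside 30.9% of all heart clusters. In the other direction, 170 of 306 muscle clusters (55.6%, 49.8% to 61.2%) overlapped a heart cluster, beside 52.8%. Sharing was higher in 3' UTRs, at 69.6% (61.2% to 77.1%) of heart clusters, than in introns, at 27.5% (21.7% to 34.0%). The same order held over all genes, with 53.9% and 19.0%, both below the intervals of the phosphatase genes. In the other direction there was no such excess, since 63.5% (55.5% to 71.0%) of muscle clusters in 3' UTRs and 44.4% (35.9% to 53.2%) in introns overlapped a heart cluster, beside 60.9% and 43.6% over all genes. These shares depend on how many clusters the other library has in the gene, and that dependence was not tested.

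Of the 28 C2C12 clusters, 13 (46.4%, 27.5% to 66.1%) overlapped a heart cluster and 9 (32.1%, 15.9% to 52.4%) a muscle cluster, beside 33.9% and 25.0% over all genes. Every C2C12 cluster that overlapped muscle also overlapped heart. The 4 that overlapped heart but not muscle were in introns of Ppm1a, Ppp2r2d, Ppp2r5e and Ppp3ca. The 11 stretches common to all 3 libraries were 7 to 51 nt long, with 7 in 3' UTRs, 2 in introns, 1 in a coding exon of Ppp1cb and 1 in Ppp6r2, and 10 of them held UGU. Heart and muscle shared 181 stretches in 33 phosphatase genes, counted whether or not C2C12 also covered them, of which 110 were in 3' UTRs and 62 in introns.

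UGU was present in nearly every cluster. In heart 379 of 384 phosphatase clusters (98.7%, 97.0% to 99.6%) held it, in muscle 302 of 306 (98.7%, 96.7% to 99.6%) and in C2C12 28 of 28 (100%, 87.7% to 100%), beside 98.3%, 98.4% and 86.4% of all clusters. Density differed by gene part, with 11.7, 11.5 and 12.8 UGU per 100 nt in intronic clusters and 5.49, 5.41 and 6.44 in 3' UTR clusters. The highest counts were 25 UGU in a heart cluster and 27 in a muscle cluster, both in the Ppp1r12b intron printed above, and 18 in the C2C12 cluster of Ppm1l. The 9 clusters without UGU lay in 9 different genes.

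Gene structure went along with cluster number. The 3' UTRs of phosphatase genes had a median length of 1667.5 nt (115 to 8150 nt), beside 1469.5 nt over all genes. Over the 56 genes, 3' UTR length and 3' UTR clusters had a Spearman correlation of 0.49 in heart, 0.43 in muscle and 0.17 in C2C12, close to the 0.43, 0.37 and 0.17 over 7970 genes. Gene length and intronic clusters had one of 0.76, 0.57 and 0.36. These are descriptions across genes of the same libraries, and a longer stretch gives more room for clusters.

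In the 3' UTRs of heart and muscle, a smaller share of phosphatase clusters than of clusters in general lay near the transcript end. In heart 34 of 138 (24.6%, 17.7% to 32.7%) and in muscle 39 of 159 (24.5%, 18.1% to 32.0%) were within 500 nt of the annotated end, beside 33.0% and 35.4% over all genes. Both values over all genes were above these too narrow intervals, the heart one barely. The 9 heart and 10 muscle 3' UTR clusters of Ppp1cb all lay 2810 nt or more from the end. In C2C12 it was 3 of 8 (37.5%, 8.52% to 75.5%), beside 41.9%, so no difference was detectable there. The part of 3' UTR length and of single genes in these shares was not tested. Among intronic clusters, 22 of 218 in heart (10.1%, 6.43% to 14.9%) and 17 of 135 in muscle (12.6%, 7.51% to 19.4%) were within 300 nt of an exon, beside 13.2% and 15.8%. The median intronic distance was 3943.5 nt and 5164 nt.

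Other genes of phosphatase signalling that the symbol rule does not take were also examined, as a list of 36 symbols of which 26 had clusters. Of these, 25 (96.2%) were bound in heart, 21 (80.8%) in muscle and 5 (19.2%) in C2C12. Over all genes with a cluster the shares were 85.3%, 66.5% and 34.3%. The list genes held 192, 104 and 7 clusters. Rcan2, a regulator of calcineurin, had 57, 20 and 0 clusters, above any phosphatase gene in heart, and Rcan1 had 6, 5 and 0, all in its 3' UTR. The calcineurin targets Nfatc1, Nfatc2 and Nfatc3 had 1, 6 and 0, 7, 0 and 1, and 8, 10 and 0. The PP2A-binding striatins Strn and Strn3 had 13, 2 and 0 and 20, 11 and 1, and the PP2A inhibitor Arpp19 had 8, 10 and 0, of which 7 and 10 were in its 3' UTR.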

How the data were processed

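The authors collapsed identical reads, trimmed adapters, mapped uniquely to mm9 and splice junctions with Bowtie and TopHat (no versions stated) and called clusters per library by a Poisson test that allows for gene expression and pre-mRNA length. The deposited files hold cluster positions, strand and gene identifier. A further deposited column is 1e-06 throughout, has no stated meaning and was not used.

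Of 8037 gene identifiers, 8030 were named from a RefSeq table (GRCm38.p6, names only) and 7981 were matched to the GENCODE vM1 annotation of NCBIM37, the assembly of mm9. Positions count from 1. Gene part was set by cluster midpoint over protein-coding transcripts, in the order 3' UTR, coding exon, 5' UTR, intron. Named genes were all catalytic genes, those with the most clusters or 3' UTR clusters per library, those bound in a single library of a pair, those past 2-fold, and those with stretches common to the libraries. The members and lists were chosen with earlier results of these data known. Code for gene parts, overlap, the 2-fold call and thinning was checked on small made-up or simulated data. The interval code was not among these checks. Analyses ran in Python 3.11.15, with intervals from scipy 1.17.1, tables from pandas 2.3.3 and numpy 2.4.6, sequence read through pysam 0.24.0 after indexing by samtools 1.23.1, and plots from matplotlib 3.10.9.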

Additional observations from a re-analysis of the deposited data

How the results depend on the processing

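Of 116 recomputed values for 33 results, 86 stayed within the interval of the result or within 1.5 times its count, and 30 moved. The cause was not tested unless the setting itself reduces the clusters or genes counted. Thinning to the smallest library gave 26.2 bound phosphatase genes in heart and 25.8 in muscle. Leaving out clusters under 40 nt left 10 clusters in 9 genes in C2C12. Requiring at least 2 clusters left 6 bound genes in C2C12, and 5 after merging clusters within 50 nt. Merging lowered the 3' UTR share in muscle to 44.3% and raised the intron share to 51%, so the excess of 3' UTR over intronic clusters there depended on counting adjacent clusters separately. With 3' UTR clusters alone, 7 genes were bound in heart and not muscle, 5 in muscle and not heart, 0 in C2C12 and not heart, and 1 in C2C12 and not muscle. Requiring at least 2 clusters in the bound library gave 0 genes for muscle not heart, 0 for C2C12 not heart and 0 for C2C12 not muscle. At a fold of 1.5, 4 genes were called in heart over muscle (Ppp3cc, Ppp4r3a, Ppp4r1 and Ppp6r2), 14 in muscle over heart and 1 in muscle over C2C12. At a fold of 3, 4 remained in muscle over heart (Ppm1l, Ppp1r3c, Ppp4r2 and Ppp1r15b), and with 3' UTR clusters alone 3 (Ppm1l, Ppp1r3c and Ppp1r15b). Apart from the thinned shares given earlier, shares over all genes are given at the main settings only. The counts of bound or called genes in this section therefore have no background beside them. At the other folds the rule was again easier to meet in muscle than in heart. When 50% of both clusters had to overlap, the shared share was 37.2% for heart with muscle, 46.7% for muscle with heart, 1.56% for heart with C2C12, 1.31% for muscle with C2C12, 21.4% for C2C12 with heart and 14.3% for C2C12 with muscle. Counting clusters within 50 nt as shared gave 62.1% for muscle with heart. In 3' UTRs alone the share was 69.6% for heart with muscle, 63.5% for muscle with heart and 62.5% for C2C12 with muscle. No paired analysis was possible because each group holds 1 library and no test was made.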

Other observations

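Some intronic clusters of phosphatase genes lay close to exons. In Ppp2r5a the tissues shared a cluster 48 nt upstream of an exon in heart and 52 nt upstream in muscle. In Ppp1r12a an exon had clusters from 1 nt upstream in heart and 28 nt upstream in muscle, and another had clusters from 16 nt downstream in heart and 53 nt downstream in muscle. In Ppm1b a shared cluster began 170 nt downstream of an exon in heart and 164 nt downstream in muscle. In Ppp2r5e a heart cluster 71 nt upstream of an exon overlapped a C2C12 cluster 110 nt upstream, and in Ppp2r2d the C2C12 cluster 174 nt upstream of an exon overlapped 2 heart clusters. Splicing of these exons was not analysed here.

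The clusters without UGU were in Ppp1r12b and Ppp1r37 (coding exons), Ppp1r9b, Ppp2r5c, Ppm1l, Ppp1r14c and Ppp1r3a (3' UTRs), and Ppp2r2a and Ppp5c (introns). Of these, 5 were heart clusters and 4 were muscle clusters, and they were 35 to 61 nt wide.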
